A study of Mus musculus with 12 samples.

Results

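Histidine decarboxylase, encoded by Hdc, makes histamine, and the deposited counts from mouse aorta were read for it together with 6 genes that mark the mast cell, the best-known store of histamine in tissue. The 7 genes were Hdc, Cpa3, Cma1, Kit, Mcpt4, Tpsb2 and Fcer1a, chosen by name, with the RefSeq accession of highest mean level over all 12 libraries standing for each. The choice was made with the rise of Hdc at PPE week 1 known, so its levels, and every contrast that includes PPE week 1, describe that choice and lend it no support. Of the 7 genes 6 had a count in at least 1 library, and 5 (Hdc, Cpa3, Cma1, Mcpt4 and Tpsb2) were among the 12756 accessions of 12239 genes that were tested, out of 34755 accessions in all. Aortas of 12 male C57BL/6J mice, aged 10 weeks, gave 1 library each, with 4 separate animals per group. In PPE week 2 and PPE week 1 the infrarenal aorta was infused with porcine pancreatic elastase (PPE), a pig enzyme that breaks down elastin and is given to mice to model aortic aneurysm, and the tissue was taken at day 14 or day 7. The saline group was infused with saline and its tissue was taken at day 7, so PPE week 2 was set against a control of another day.

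Hdc removes the carboxyl group of histidine to form histamine, a mediator that widens small vessels and makes them leaky. Mast cells load histamine into granules together with proteases. Cpa3 encodes the granule carboxypeptidase A, Cma1 and Mcpt4 encode granule chymases, and Tpsb2 encodes a granule tryptase. Kit is the receptor for stem cell factor, on which mast cells depend, and Fcer1a is the IgE-binding chain of the high-affinity receptor that triggers degranulation. Hdc is also known to be induced in basophils, neutrophils, monocytes and macrophages. Of these, neutrophils, monocytes and macrophages release histamine without storing it in the way a mast cell does. The comparisons therefore ask whether the histamine enzyme moved with the genes of the mast cell.

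The promoter windows of Hdc and Cpa3 are shown because both genes are known targets of GATA2 in mast cells, and the measured levels of these 2 genes did not go together. The windows run from 250 bases before to 50 after the start site and come from RefSeq on GRCm38.p6, the assembly behind mm10. The Hdc window lies at chr2:126618629-126618928 on the minus strand and the Cpa3 window at chr3:20242132-20242431 on the minus strand. Capitals mark the only match to the GATA motif, which is GATAA or GATAG after an A or a T, searched on both strands.
Hdc: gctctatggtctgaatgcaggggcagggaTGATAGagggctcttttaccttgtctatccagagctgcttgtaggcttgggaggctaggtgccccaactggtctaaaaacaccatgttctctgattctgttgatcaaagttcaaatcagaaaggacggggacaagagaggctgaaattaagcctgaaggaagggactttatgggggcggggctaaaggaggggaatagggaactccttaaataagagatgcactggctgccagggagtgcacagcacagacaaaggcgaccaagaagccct
Cpa3: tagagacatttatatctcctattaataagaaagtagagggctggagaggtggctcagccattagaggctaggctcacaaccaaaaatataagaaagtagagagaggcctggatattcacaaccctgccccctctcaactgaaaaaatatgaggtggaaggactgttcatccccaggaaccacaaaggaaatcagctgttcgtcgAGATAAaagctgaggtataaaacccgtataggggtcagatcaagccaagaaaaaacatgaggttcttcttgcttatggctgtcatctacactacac
A match stood 221 bases before the start site in Hdc and 46 bases before it in Cpa3. Windows were at hand for 6 of the 7 genes, and Cma1, Mcpt4 and Fcer1a also held 1 match each while Kit held 0. Of all 32851 promoter windows 9778, or 29.8%, held the motif, so a match is frequent and describes the letters only.

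Total counts per library were 8343313 to 12269131, and RefSeq's ribosomal RNA precursor NR_046233 took 19.5 to 22.1% of them at PPE week 2, 21.0 to 34.6% at PPE week 1 and 36.2 to 49.9% in saline. The tissue label fitted its markers, since all 5 smooth muscle genes examined had counts. Their summed level, in counts per 1000000 counts of a library after TMM scaling (CPM), was 3990 to 8923 at PPE week 2, 1454 to 2604 at PPE week 1 and 4201 to 5658 in saline. Of these 5 genes 4 were lower at PPE week 1 than in saline and 4 were higher at PPE week 2 than at PPE week 1 in the edgeR fit used throughout. In these comparisons 7.89% and 6.59% of all tested accessions were called in either direction. In bulk tissue, fewer cells of a type and less RNA per cell cannot be told apart.

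Hdc was high at PPE week 1 and low in most other libraries. The raw counts of Hdc (accession NM_008230, in a gene spanning chromosome 2, 126593659 to 126624025) were 44, 94, 22 and 266 at PPE week 2, 345, 984, 391 and 493 at PPE week 1, and 53, 39, 20 and 24 in saline, replicates 1 to 4. On the CPM scale Hdc stood at 4.10, 9.02, 1.93 and 19.1 at PPE week 2, at 31.7, 109, 29.3 and 49.2 at PPE week 1, and at 4.61, 5.81, 2.61 and 3.11 in saline. Each PPE week 1 library lay above each library of the other groups, with replicate 2 the highest, while PPE week 2 overlapped saline and had replicate 4 as its highest.

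At PPE week 1 Hdc averaged 54.7 ± 37.1 CPM, against 4.04 ± 1.46 CPM in saline (SD, n = 4 each), a 13.5-fold difference with a log2 fold change of 3.76 ± 0.68 (SE; 95% interval 2.28 to 5.23). In edgeR's quasi-likelihood test with Benjamini-Hochberg adjustment over all accessions its adjusted p was 0.00706. Hdc was the only one called of the 5 tested members, where 7.89% of all tested accessions were called and 21.1% had groups that did not overlap. The call held without each of the 12 libraries in turn, with a log2 fold change of 3.18 to 3.97. With the NR_046233 share as a covariate the log2 fold change was 4.19 and the call was lost (adjusted p = 0.0788). That share was higher in each saline library than in each PPE library, so the covariate cannot be fully told apart from the group. With it the accessions called in this comparison went from 1007 to 82.

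At PPE week 2 Hdc averaged 8.55 ± 7.66 CPM, against 4.04 ± 1.46 CPM in saline (n = 4 each), which did not pass the edgeR test (log2 fold change 1.09 ± 0.64, 95% interval -0.30 to 2.48, adjusted p = 0.438). None of the 5 tested members was called there, where 2.65% of all tested accessions were, and the groups of all 5 overlapped, where those of 8.99% of accessions did not. The log2 fold change of Hdc was 0.31 without PPE week 2 replicate 4.

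Against PPE week 1, Hdc fell at PPE week 2, with 8.55 ± 7.66 CPM at PPE week 2 and 54.7 ± 37.1 CPM at PPE week 1, a 6.36-fold lower level (log2 fold change -2.67 ± 0.64, 95% interval -4.05 to -1.29, edgeR adjusted p = 0.0281). It was again the only member called, where 6.59% of all tested accessions were called and 15.9% had groups that did not overlap. This call was less firm than the one at PPE week 1. It was lost without PPE week 1 replicate 2 (-2.10, adjusted p = 0.0760) or 4 (-2.72, 0.0518) and without PPE week 2 replicate 1 (-2.44, 0.0750) or 2 (-2.68, 0.0539), while DESeq2 and limma-voom made it with all 12 libraries. A fit of only the 8 libraries (-2.65, 0.0725), no low-count filter (-2.69, 0.0775) and the NR_046233 covariate (-2.23, 0.289) also ended it.

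**Figure D1:**
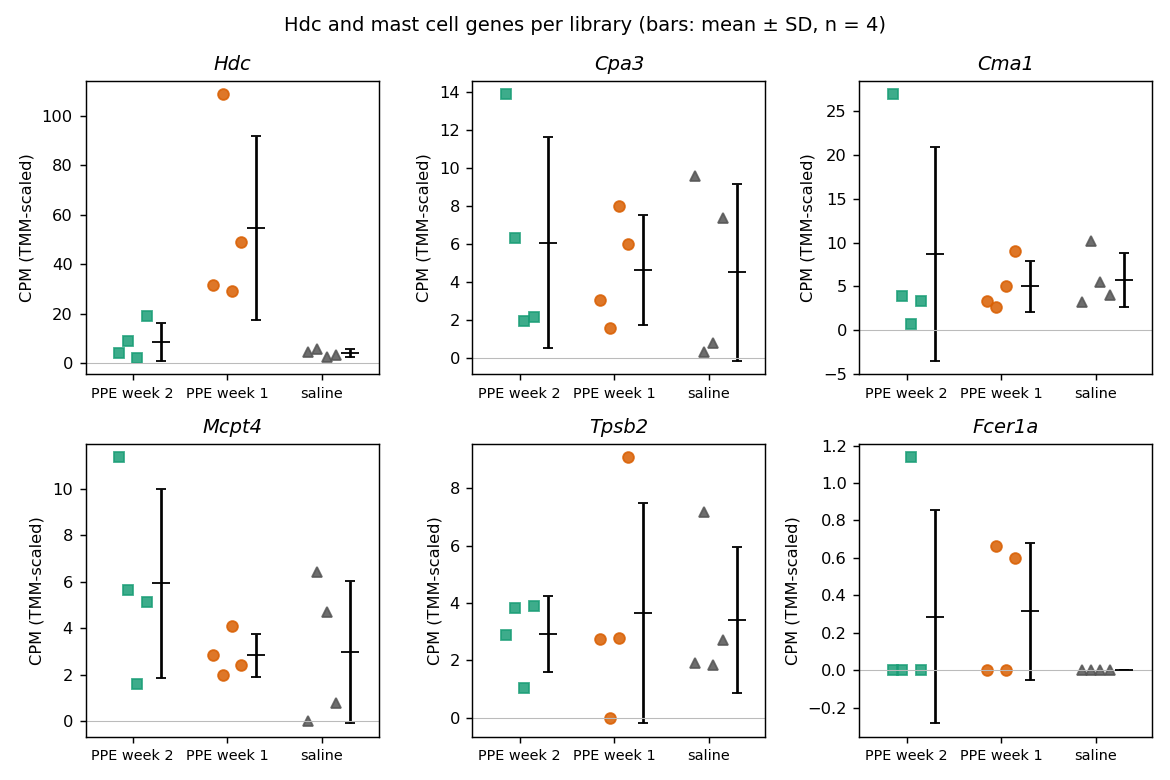
Level in CPM (vertical axes, linear, each gene on its own scale) of Hdc, Cpa3, Cma1, Mcpt4, Tpsb2 and Fcer1a in each library of PPE week 2 (squares), PPE week 1 (circles) and saline (triangles), with mean ± SD (n = 4) to the right of the points. Hdc at PPE week 1 lies between 29.3 and 109 CPM, above every other library, while the groups overlap for each mast cell gene.

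The mast cell proteases gave another picture, with low levels, wide spread between animals and no call in any comparison. Cpa3 (NM_007753, chromosome 3, 20215616 to 20242209) had 13.9, 6.33, 1.93 and 2.16 CPM at PPE week 2, 3.03, 1.55, 8.01 and 5.99 CPM at PPE week 1, and 9.58, 0.298, 0.784 and 7.38 CPM in saline. Saline held both the lowest and the second highest of the 12 libraries, and the 3 groups overlapped. Cpa3 averaged 4.64 ± 2.90 CPM at PPE week 1, against 4.51 ± 4.67 CPM in saline, with a log2 fold change of 0.03 (95% interval -1.87 to 1.94, edgeR adjusted p = 0.989). With counts of 2 to 149 per library the interval is wide, so a rise or fall of Cpa3 within it cannot be told from no change.

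Cma1 (NM_010780, chromosome 14, 55941451 to 55944675) had 27.0, 3.93, 0.701 and 3.31 CPM at PPE week 2, 3.30, 2.65, 5.01 and 9.08 CPM at PPE week 1, and 3.22, 10.1, 5.49 and 4.01 CPM in saline. The groups overlapped, and PPE week 2 replicate 1 stood alone at the top. The log2 fold change of Cma1 was -0.18 (95% interval -1.92 to 1.56) for PPE week 1 against saline. Against saline, PPE week 2 gave 0.61 ± 0.81 with that replicate and -1.10 without it, neither called.

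Mcpt4 (NM_010779, chromosome 14, 56059744 to 56062310), the other chymase gene, had 11.4, 5.66, 1.58 and 5.11 CPM at PPE week 2, 2.85, 1.99, 4.12 and 2.39 CPM at PPE week 1, and 0, 6.41, 4.70 and 0.776 CPM in saline. PPE week 1 lay wholly inside the range of saline, and PPE week 2 overlapped both. The log2 fold change of Mcpt4 was -0.05 (95% interval -2.03 to 1.93) for PPE week 1 and 1.01 ± 0.94 for PPE week 2 against saline. Tpsb2 (NM_010781, chromosome 17, 25366308 to 25368096) had 2.89, 3.84, 1.05 and 3.89 CPM at PPE week 2, 2.75, 0, 2.77 and 9.08 CPM at PPE week 1, and 1.92, 7.15, 1.83 and 2.72 CPM in saline. Its libraries again overlapped between groups, with 1 high library in each of PPE week 1 and saline, and its log2 fold change was 0.11 (95% interval -1.87 to 2.09) for PPE week 1 and -0.21 ± 0.94 for PPE week 2 against saline.

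Between the PPE weeks the log2 fold changes, PPE week 2 over PPE week 1, were 0.38 for Cpa3, 0.80 for Cma1, 1.06 for Mcpt4 and -0.32 for Tpsb2, none of them called. In all 3 comparisons 0 of the 4 tested protease genes passed edgeR, DESeq2 or limma-voom, and 0 had an unadjusted p under 0.05 in edgeR. Leaving out single libraries changed the sign of the values of Cpa3, Cma1 and Tpsb2 between the PPE weeks, and that of Mcpt4 in no leave-out there (0.53 to 1.37). The summed level of the 4 proteases was 5.25 to 55.1 CPM at PPE week 2, 6.19 to 26.5 CPM at PPE week 1 and 12.8 to 24.0 CPM in saline. PPE week 1 replicate 2, which had the highest Hdc, had the lowest sum of its group.

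**Figure D2:**
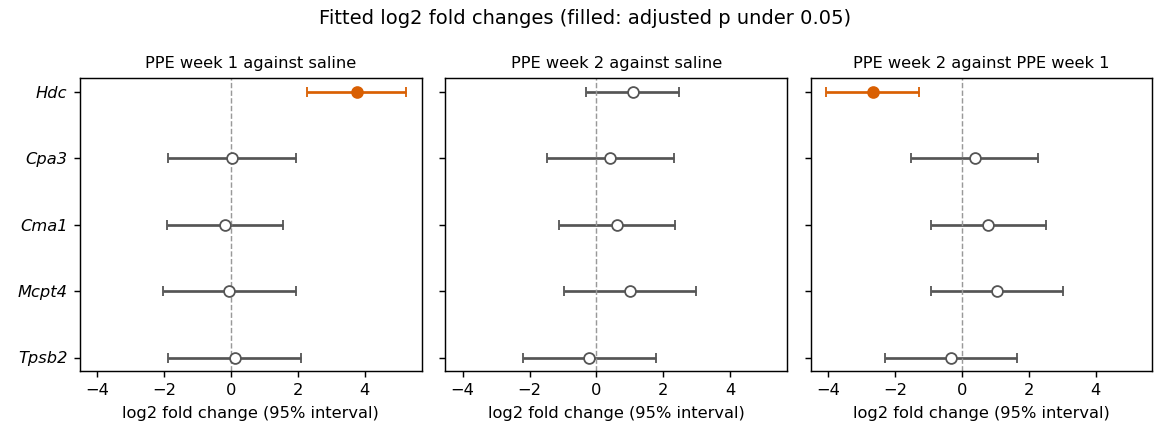
Log2 fold change (horizontal axes) with its 95% interval from the edgeR fit for Hdc and the 4 tested mast cell proteases, 1 panel per comparison; filled points have an adjusted p under 0.05. Hdc is at 3.76 for PPE week 1 against saline and at -2.67 for PPE week 2 against PPE week 1, and every protease interval includes 0.

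Levels of different genes can be set side by side per kilobase of transcript. On the scale of CPM per kilobase, Hdc averaged 3.57 ± 3.20 at PPE week 2, 22.9 ± 15.5 at PPE week 1 and 1.69 ± 0.61 in saline. The 4 proteases lay between 2.61 and 8.12 at PPE week 2, between 2.56 and 4.67 at PPE week 1 and between 2.68 and 5.32 in saline. Hdc thus had the lowest mean of the 5 genes in saline and the highest at PPE week 1, on a scale where length is taken into account. Of all stretches of 50 bases in these transcripts, 5.46% in Cma1 and 5.48% in Mcpt4 also occur in other genes, and 0% in Hdc, Cpa3 and Tpsb2.

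The receptors that define the mast cell surface were at or near 0. Fcer1a (NM_010184) had 0, 0, 13 and 0 raw counts at PPE week 2, 0, 6, 0 and 6 at PPE week 1, and 0 in each saline library, and was not tested. It had no count in 9 of the 12 libraries, and a count of 0 allows up to 3 counts, or 0.245 to 0.360 per 1000000 counts of a library, by counting error alone. That limit takes each count as a separate event. Of small counts (2 to 20), 66.0 to 75.6% per library were even, so the limit may be too low. Both accessions of Kit had 0 counts in all 12 libraries. In Kit, however, the 2 transcripts differ by few bases, which is shown because it bears on how a count of 0 is read. NM_001122733 has 12 bases (chr5:75639147-75639158, plus strand, in capitals) that NM_021099 lacks.
Kit: catttaaagGTAACAACAAAGagcaaatcc
NM_021099 has in turn 39 bases of its own at its start. Among genes with at least 100 counts, no count at all was found for 71.4% of 315 accessions with 1 to 49 private bases, for 96.5% of 655 with none and for 11.0% of 2544 with at least 100. A count of 0 for Kit therefore does not show that Kit was absent from these aortas.

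A wider list of 23 mast cell genes held 10 tested genes, including the 4 proteases, and 0 were called by edgeR in each comparison. Beside the shares called over all tested accessions (7.89%, 2.65% and 6.59%, as above), 0 of 10 is not read as a result. Counted without adjustment (p under 0.05), 1 gene stood above saline in each PPE week, while at PPE week 2 there was 1 higher and 1 lower than at PPE week 1. DESeq2 called 1, 0 and 1 of the 10 in these comparisons and limma-voom 0, 0 and 1. The median log2 fold change of the 10 was 0.04 for PPE week 1 and 0.26 for PPE week 2 against saline, beside medians of 0.0027 and 0.05 over all tested accessions.

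The single gene nearest to an edgeR call was Hpgds, which encodes the haematopoietic prostaglandin D synthase of mast cells, macrophages and other leukocytes. Hpgds averaged 19.7 ± 5.01 CPM at PPE week 2, 34.3 ± 5.43 CPM at PPE week 1 and 21.8 ± 2.44 CPM in saline, and its edgeR adjusted p was 0.103 at PPE week 1 against saline, and 0.0510 when PPE week 2 was set against PPE week 1. It was the gene of the list that DESeq2 called in these comparisons (adjusted p = 0.0490 and 0.00937). Limma-voom called it between the PPE weeks only (0.0286). Gata2, a transcription factor of mast cells that endothelial cells also express, averaged 14.7 ± 6.90 CPM at PPE week 2, 6.66 ± 2.40 CPM at PPE week 1 and 7.44 ± 2.91 CPM in saline. Its adjusted p was 0.272 for PPE week 2 against saline. The 2 most abundant genes of the list, Ndst2 and Enpp3, an enzyme of heparin sulphation and a surface ectoenzyme, are made by many cells and were not called (log2 fold change 0.36 ± 0.20 and -0.32 ± 0.54 at PPE week 1 against saline).

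The difference between Hdc and each protease was then read within libraries, as log2 CPM of Hdc minus log2 CPM of the protease with a prior count of 2. Hdc minus Cpa3 was -1.71, 0.50, 0 and 3.04 at PPE week 2, 3.31, 5.97, 1.84 and 3.00 at PPE week 1, and -1.02, 3.61, 1.52 and -1.20 in saline. Saline replicate 2, with 2 counts of Cpa3, reached the range of PPE week 1. The mean was 3.53 ± 1.74 at PPE week 1, against 0.73 ± 2.29 in saline (n = 4 each), a difference of 2.80 that did not pass a two-sided exact permutation test (p = 0.143, also 0.143 after adjustment over the 4 tested proteases).

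Hdc minus Cma1 was higher by 3.75 and Hdc minus Tpsb2 by 4.18 at PPE week 1 than in saline, with no overlap of the libraries and an exact permutation p of 0.0286 each, the smallest that 4 libraries against 4 allow. After adjustment over the 4 proteases both stood at 0.0571. For Mcpt4 the difference was 2.65 (exact permutation p = 0.143, adjusted 0.143). At PPE week 2 against saline the differences were -0.27 for Cpa3, 0.97 for Cma1, -1.03 for Mcpt4 and 0.78 for Tpsb2, with exact permutation p from 0.143 to 0.857. At PPE week 2 against PPE week 1 they were -3.07, -2.79, -3.68 and -3.40 in the same order, with exact permutation p of 0.0857, 0.0571, 0.0286 and 0.0286, and adjusted values from 0.0571 to 0.0857. None of the 12 differences passed an adjusted threshold of 0.05, and those at PPE week 1 rest on the libraries in which the rise of Hdc was known.

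Around Hdc, 14 genes of histamine synthesis, handling and reception held 8 tested genes. At PPE week 1 against saline edgeR called Hdc alone, where 7.89% of all tested accessions were called. DESeq2 called 3 of the 8 there and limma-voom 1. With p not adjusted, 1 gene stood above and 2 below saline, and the median log2 fold change of the 8 was -0.27. Slc18a2, the carrier that loads histamine and other amines into vesicles, had 7.01 to 58.0 CPM at PPE week 2, 3.95 to 22.7 CPM at PPE week 1 and 10.6 to 17.8 CPM in saline, with a log2 fold change of 0.05 ± 0.63 at PPE week 1 against saline. Hnmt, which methylates and so inactivates histamine, had -0.66 ± 0.70. The receptor gene Hrh2 had 0 to 2.21 CPM at PPE week 2, 0.998 to 5.51 CPM at PPE week 1 and 0 to 1.19 CPM in saline, and did not pass the edgeR test for PPE week 1 against saline (adjusted p = 0.260). Hrh1 and Hrh4 were too low to be tested, and Hrh3 and the histamine-degrading Aoc1 were at 0 in all libraries. Like Kit, Hrh3 and Aoc1 are counted as more than 1 transcript each, so a count of 0 does not show that they were absent.

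Of the enzymes of histamine breakdown, edgeR called 1, and only between the PPE weeks, where 6.59% of all tested accessions were called. Maob, a monoamine oxidase that acts on methylated histamine, averaged 35.8 ± 24.1 CPM at PPE week 2, 14.2 ± 4.31 CPM at PPE week 1 and 31.6 ± 6.84 CPM in saline. At PPE week 2 it did not differ from saline in the edgeR test (0.18 ± 0.37, adjusted p = 0.867). It was called higher at PPE week 2 than at PPE week 1 (log2 fold change 1.33 ± 0.37, edgeR adjusted p = 0.0431). That call was lost without any library other than PPE week 2 replicates 2 and 4, with an adjusted p of 0.0548 to 0.184. Limma-voom (0.0895), a fit of only the 8 libraries (0.104), the replicate block (0.0629) and the covariate (0.329) ended it too. Aldh2, an aldehyde dehydrogenase of many tissues, averaged 79.4 ± 8.52 CPM at PPE week 1, against 152 ± 26.9 CPM in saline, and was not called by edgeR (-0.93 ± 0.31, adjusted p = 0.0840). DESeq2, however, called both Maob (-1.17, adjusted p = 0.0270) and Aldh2 (-0.95, adjusted p = 0.0206) lower at PPE week 1 than in saline. Limma-voom called neither there (adjusted p = 0.102 and 0.0733).

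Among 4 tested genes of other amino acid decarboxylases and amine enzymes, none was called at PPE week 1 against saline. Of all tested accessions 7.89% were called there. With p not adjusted, 1 of the 4 stood above and 1 below saline, while DESeq2 called 1 and limma-voom 0. Odc1, the ornithine decarboxylase of polyamine synthesis, was lower at PPE week 2 than at PPE week 1 (-1.06 ± 0.25, edgeR adjusted p = 0.0181). It averaged 23.7 ± 10.0 CPM at PPE week 2, 49.4 ± 6.29 CPM at PPE week 1 and 36.0 ± 1.49 CPM in saline. It lost the call without PPE week 2 replicate 3 or without replicate 1 or 2 of PPE week 1 (0.0571 to 0.0662), and with library size only (0.0852), only the 8 libraries (0.0565) or the covariate (0.145). Csad, the decarboxylase of taurine synthesis, was higher at PPE week 2 than at PPE week 1 (1.31 ± 0.27, edgeR adjusted p = 0.00897). Its means were 56.5 ± 23.1 CPM at PPE week 2, 22.7 ± 4.76 CPM at PPE week 1 and 34.8 ± 7.91 CPM in saline. Csad was not called with the NR_046233 covariate (0.97, 0.233). Th, the tyrosine hydroxylase of sympathetic nerves, averaged 25.7 ± 22.5 CPM at PPE week 2, against 0.605 ± 0.722 CPM in saline (adjusted p = 0.0439). Its call was lost without any saline library, replicates 2 and 3 of PPE week 1, or replicates 2 and 4 of PPE week 2 (0.0530 to 0.131), and with no low-count filter (0.0979), limma-voom (0.221), the replicate block (0.139) or the covariate (0.758).

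The pattern of Hdc over the 12 libraries was unlike that of the 4 proteases. The measure is Pearson's r of log2 CPM over 12 libraries, given as a description, since the libraries fall into the 3 groups and share their scaling. Among the other 12755 tested accessions Mcpt4 had an r of 0.11 with Hdc and ranked 5723, Cpa3 had 0.02 (6662), Cma1 0.02 (6675) and Tpsb2 -0.20 (8797). The other 6 tested genes of the wider mast cell list were divided, with r of 0.76 for Hpgds, 0.68 for Ndst2, 0.36 for Il1rl1, -0.15 for Slc18a2, -0.16 for Enpp3 and -0.18 for Gata2. Over the 15 tested neutrophil genes r with Hdc ran from 0.40 (Wfdc21) to 0.92 (Slfn4). Over the 15 tested monocyte and macrophage genes it ran from 0.50 (Mrc1) to 0.97 (Cd68). For the smooth muscle genes it was negative, from -0.94 (Cnn1) to -0.46 (Smtn). Hdc was chosen with its rise at PPE week 1 known, so a gene that differed there can have a high or low r for that reason alone.

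The 5 accessions most like Hdc were Rnf149 (r = 0.97), Cd68 (0.97), Tgfbi (0.96), Mxd1 (0.96) and Mirt2 (0.96). Cd68 encodes a lysosomal glycoprotein of macrophages and monocytes, Rnf149 a membrane-bound ubiquitin ligase, Tgfbi a matrix protein induced by TGF-beta, Mxd1 a partner of MAX that opposes MYC, and Mirt2 a long noncoding RNA. Cd68 had 44.7, 67.5, 28.5 and 63.5 CPM at PPE week 2, 125, 141, 107 and 106 CPM at PPE week 1, and 44.7, 48.9, 39.5 and 38.3 CPM in saline. Within PPE week 2 the libraries with the most Hdc, replicates 2 and 4, also had the most Cd68, as well as the most Tpsb2, while Cpa3, Cma1 and Mcpt4 were highest in replicate 1. Mirt2 had 0 to 0.863 CPM at PPE week 2, 1.57 to 3.79 CPM at PPE week 1 and 0 to 0.149 CPM in saline.

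Cpa3 had other neighbours, namely Eloc (r = 0.93), a subunit of ubiquitin ligase complexes, the esterase gene Pon1 (0.91), Pigz (0.86), B630019K06Rik (0.83) and 1700113A16Rik (0.83). With Cpa3, Gata2 had an r of 0.61 (rank 227) and Slc18a2 of 0.60 (273), above Cma1 at 0.21, Tpsb2 at 0.14 and Mcpt4 at -0.25. The highest r of Cpa3 with another protease was thus 0.21, at counts where 1 library had 0 of Mcpt4 and another 0 of Tpsb2.

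**Figure D3:**
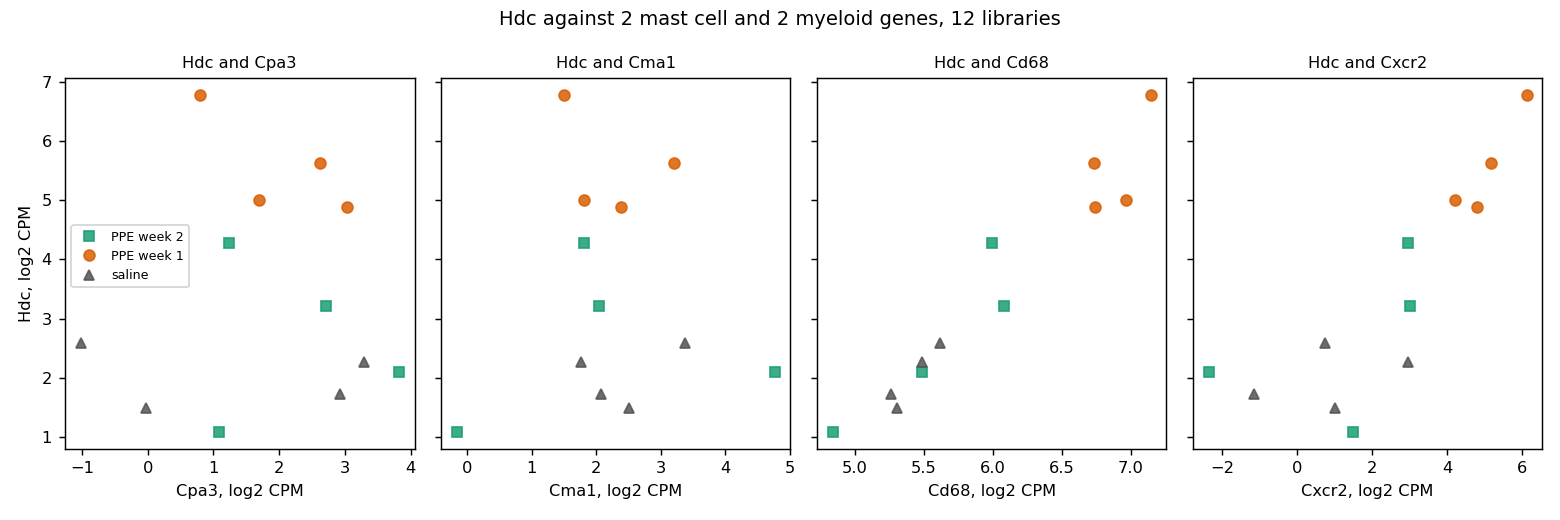
Hdc (vertical axis) against Cpa3, Cma1, Cd68 and Cxcr2 (horizontal axes), all in log2 CPM with a prior count of 2, 1 point per library for PPE week 2 (squares), PPE week 1 (circles) and saline (triangles). Over the 12 libraries r is 0.02 for Cpa3 and Cma1, 0.97 for Cd68 and 0.83 for Cxcr2. Cd68 is among the accessions most like Hdc and Cxcr2 was picked with its values known, and other genes of their lists have lower r.

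**Figure D4:**
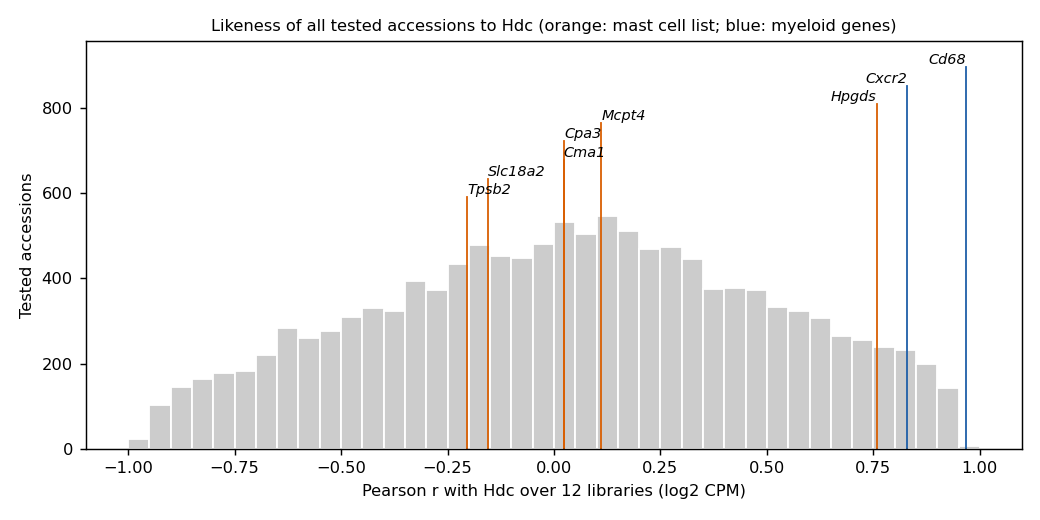
Number of tested accessions (vertical axis) by Pearson r of log2 CPM with Hdc over 12 libraries (horizontal axis). Vertical lines mark single genes, a choice from their lists, and their height carries no value. Tpsb2, Slc18a2, Cma1, Cpa3 and Mcpt4 lie between -0.20 and 0.11, and Hpgds, Cxcr2 and Cd68 at 0.76, 0.83 and 0.97.

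Markers of the other cells known to make Hdc moved with it to different degrees. Those of the basophil were at or near 0, since the sum of Mcpt8, Prss34 and Cd200r3 was 0 to 1.51 CPM at PPE week 2, 0 to 0.798 CPM at PPE week 1 and 0 to 2.09 CPM in saline, with 1 of the 3 at 0 throughout. The sum of 7 neutrophil markers was 4.03 to 18.4 CPM at PPE week 2, 39.1 to 139 CPM at PPE week 1 and 8.28 to 21.5 CPM in saline, with 1 of the 7, the calprotectin subunit gene S100a9, at 0 throughout. For 6 monocyte and macrophage markers it was 842 to 2341 CPM at PPE week 2, 2933 to 3886 CPM at PPE week 1 and 1557 to 1792 CPM in saline, with the integrin gene Itgam at 0 throughout. The 11 mast cell markers summed to 14.7 to 75.9 CPM at PPE week 2, 13.6 to 36.0 CPM at PPE week 1 and 16.9 to 39.5 CPM in saline, with 3 of the 11 (Kit, Tpsab1 and Ms4a2) at 0 throughout. Cd200r3, S100a9, Itgam, Tpsab1 and Ms4a2 are, like Kit, counted as more than 1 transcript each. Their counts of 0 therefore do not show that these genes were absent. Of wider lists, 4 tested basophil genes (among them Itga2 at 0.05 ± 0.31 and Il3ra at 0.80 ± 0.41 at PPE week 1 against saline) and 2 genes of other Kit-positive cells, Pmel and Etv1, had 0 called there by edgeR, DESeq2 or limma-voom, and 0 without adjustment. In that comparison edgeR called 7.89% of all tested accessions, so 0 called in such short lists is not read as a result. The part of any of the cell types named here in the level of Hdc was not tested.

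By gene, 1 of 15 tested neutrophil genes and 5 of 15 tested monocyte and macrophage genes were called higher at PPE week 1 against saline and none lower, where 3.98% of all tested accessions were called higher. The 1 of 15 neutrophil genes is near that share and is not read as a result. Medians of log2 fold change were 2.48 for the neutrophil and 1.37 for the monocyte and macrophage genes. The neutrophil gene was Slfn4, with 6.49 to 23.3 CPM at PPE week 1, against 0 to 0.129 CPM in saline (adjusted p = 0.00328), and the NR_046233 covariate ended its call (0.0533). Its raw counts in saline were 0, 0, 0 and 1, so it passed the low-count filter through PPE libraries only. Its call and the median of 2.48 are therefore not read as support. The monocyte and macrophage genes called were Cd68 (1.48 ± 0.23), Ly6c2 (2.96 ± 0.65), Cd14 (1.56 ± 0.40), C1qc (1.33 ± 0.34) and Ptprc (1.88 ± 0.46). Cd68 kept its call without each library and under the 10 alternatives, whereas each saline and each PPE week 1 library ended the call of at least 1 of the other 4 when left out (adjusted p = 0.0517 to 0.118), and the covariate ended all 4 (0.110 to 0.274). Having no low-count filter also ended the calls of Cd14 (0.0513) and C1qc (0.101), limma-voom that of Cd14 (0.0569) and the replicate block that of C1qc (0.0636). Cxcr2, a chemokine receptor of neutrophils that was picked with its values known, had 0 to 7.77 CPM at PPE week 2, 18.4 to 68.9 CPM at PPE week 1 and 0.259 to 7.49 CPM in saline, and was not called for PPE week 1 against saline (adjusted p = 0.0646).

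Of 9 tested genes of signals that feed or activate mast cells, Myd88 alone, 1 of 9, was called higher at PPE week 1 against saline, where 3.98% of all tested accessions were. Myd88, the adaptor of Toll-like and interleukin-1 receptors, averaged 107 ± 12.4 CPM at PPE week 1, against 46.3 ± 13.3 CPM in saline (1.21 ± 0.26, adjusted p = 0.0108). With the NR_046233 covariate Myd88 was not called (1.29, 0.115). Kitl, which encodes stem cell factor, averaged 41.3 ± 25.7 CPM at PPE week 2, 32.4 ± 4.07 CPM at PPE week 1 and 43.7 ± 5.50 CPM in saline (-0.43 ± 0.31 at PPE week 1 against saline, adjusted p = 0.477). Il1b, a cytokine known to induce Hdc, had 6.31 to 99.2 CPM at PPE week 2, 132 to 402 CPM at PPE week 1 and 14.5 to 56.6 CPM in saline. The groups of PPE week 1 and saline did not overlap for Il1b, but its edgeR adjusted p was 0.0871.

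Of the same lists, 0 of 15 neutrophil, 2 of 15 monocyte and macrophage and 1 of 9 signal genes were called lower at PPE week 2 than at PPE week 1. With 6.59% of all tested accessions called there in either direction, these counts are not read as a result about the lists. Cd68 had a log2 fold change of -1.23 ± 0.22 (edgeR adjusted p = 0.00403), and its call held without each library but ended with the NR_046233 covariate (-1.11, 0.106). Lyz2, the lysozyme gene of macrophages, was at -1.19 ± 0.29 (0.0324) and Myd88 at -0.94 ± 0.26 (0.0400). Both lost the call without any PPE week 1 library or replicate 1 or 3 of PPE week 2, and Myd88 also without saline replicate 2 (0.0532 to 0.114). Library size only, a fit of only the 8 libraries and the covariate ended both calls as well, and no low-count filter that of Lyz2 (0.0653 to 0.326). Slfn4 was still called higher at PPE week 2, with 0 to 4.51 CPM there, against 0 to 0.129 CPM in saline (0.0410), a call lost without any saline library, replicates 1, 3 and 4 of PPE week 1, or replicates 2 and 4 of PPE week 2 (0.0539 to 0.131). Limma-voom, the replicate block, the covariate and halved counts also ended it (0.0558 to 0.853).

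In the authors' deposited table for PPE week 1, the log2 fold change listed for Hdc was 3.33, with an adjusted p of 6.02e-19. The authors' deposited table for PPE week 2 gave Hdc 0.61 (adjusted p = 0.437). In the authors' deposited table for PPE week 1 Cpa3 stood at 0.0080, Cma1 at -0.16, Mcpt4 at -0.04 and Tpsb2 at 0.05, and Kit and Fcer1a are not listed.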

How the data were processed

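RNA was extracted with TRIzol and purified on columns, and libraries were made with a TruSeq v2 kit, per the labels' protocols. That kit does not mark strand. The submitters' processing notes list mm10, bcl2fastq and DESeq2 with no version. The aligner is not given in the sources used here, nor are counter and annotation. Raw counts per RefSeq accession and library were what the authors deposited. Their own comparisons hold log2 fold changes and p-values per accession, as deposited by the authors. Of the 34755 accessions, 34419 took a symbol from RefSeq's genes on GRCm38.p6, 197 from GENCODE and 139 had none.

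From the counts, accessions were kept with filterByExpr and libraries scaled by TMM, and a robust quasi-likelihood model with 1 mean per group was fitted to all 12 libraries in edgeR 4.0.16 (R 4.3.3), which gave a biological coefficient of variation of 0.512. P-values were two-sided, with Benjamini-Hochberg adjustment over the 12756 tested accessions and a threshold of 0.05. Standard errors are the log2 fold change divided by the square root of F. DESeq2 1.42.0 and limma 3.58.1 (voom) were alternatives, as were other scalings, filters, halved counts, summed accessions, the share of NR_046233 as a covariate, a replicate block and leaving out each library. The procedure was tested on simulated counts. Differences between Hdc and a protease used exact permutation, adjusted over the 4 tested proteases in place of the 6 mast cell genes planned, because Kit and Fcer1a could not be tested.

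The members and the gene lists were chosen with earlier results of these data known. Genes named from a list were those called and otherwise the 3 with the highest mean CPM, with Cxcr2, Il1b, Kitl, Hnmt, Hrh2, Slc18a2, Gata2 and Aldh2 added with their values known. Of small counts (2 to 20), 66.0 to 75.6% per library were even. Replicate libraries differed by more than sampling noise, and each was counted as 1 animal. Limits on counts of 0 cover counting error only.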

Additional observations from a re-analysis of the deposited data

Results flagged for a closer look

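The change of Hdc differed between the PPE weeks. Its log2 fold change against the shared saline libraries was 1.09 at PPE week 2 and 3.76 at PPE week 1, and the difference, tested as PPE week 2 against PPE week 1 in the same edgeR fit, was -2.67 (adjusted p = 0.0281). Hdc was chosen with its rise at PPE week 1 known, so this difference describes that choice and lends it no support. The call ended in 4 of 12 leave-outs and under 3 of 10 alternatives.

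Single libraries stood apart in 3 of 17 groups of 4 checked. The rule flags about 1 in 20 groups of normally distributed values, a rate that need not hold for low counts, so the number flagged is not read as a result. Cma1 was at 27.0 CPM in PPE week 2 replicate 1, far above 0.701 to 3.93 CPM in the other libraries of that group. That library also had the highest Cpa3 (13.9 CPM), Mcpt4 (11.4 CPM) and Slc18a2 (58.0 CPM) of all 12, and the highest sum of the 4 proteases, at 55.1 CPM. Tpsb2 was at 7.15 CPM in saline replicate 2, against 1.83 to 2.72 CPM in the other saline libraries, and that library had 0.298 CPM of Cpa3, the lowest of all 12. Fcer1a was at 1.14 CPM in PPE week 2 replicate 3 and at 0 in the other libraries of that group, a pattern that the rule always flags. What sets these libraries apart was not tested.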

How the results depend on the processing

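Of the 4 tested proteases, the number called stayed at 0 in all 3 comparisons under each of the 10 alternatives and 12 leave-outs. Kit and Fcer1a were not part of this count. In the wider mast cell list DESeq2 called 1, 0 and 1 genes and limma-voom 0, 0 and 1. Hdc at PPE week 1 against saline kept its direction in all alternatives and leave-outs. Its log2 fold changes were 3.52 to 4.19 over the alternatives and 3.18 to 3.97 over the leave-outs, and the NR_046233 covariate alone ended its call (4.19). Hdc at PPE week 2 against saline was called in none (0.72 to 1.96, and 0.31 to 1.42 over the leave-outs). Between PPE week 2 and PPE week 1 the Hdc call ended without a low-count filter (-2.69), with only the 8 libraries (-2.65) and with the covariate (-2.23), and the leave-outs gave -3.45 to -2.10.

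The proteases, none of them called, changed sign as follows, except that Mcpt4 kept its sign at PPE week 2 against saline (0.99 to 3.25 over the alternatives, 0.48 to 1.71 over the leave-outs) and against PPE week 1 (0.72 to 1.71 and 0.53 to 1.37). At PPE week 1 against saline Cpa3 was -1.29 with the covariate. Cma1 was 0.18 with library size only and 0.86 with the covariate. Mcpt4 was 0.40 with library size only, 1.90 with limma-voom, 0.23 with the replicate block and 1.54 with the covariate, and Tpsb2 was -0.80 with limma-voom. The leave-outs there gave -0.36 to 0.72 for Cpa3, -0.63 to 0.25 for Cma1, -0.47 to 0.66 for Mcpt4 and -0.86 to 0.76 for Tpsb2. At PPE week 2 against saline Cpa3 was -2.61 with the covariate, Cma1 -0.32 with limma-voom and -0.12 with the replicate block, and Tpsb2 0.37 with library size only and 1.68 with the covariate. The leave-outs gave -0.39 to 1.09 for Cpa3, -1.10 to 1.03 for Cma1 and -0.42 to 0.43 for Tpsb2. At PPE week 2 against PPE week 1 Cpa3 was -0.028 with limma-voom and -1.31 with the covariate, Cma1 -0.24 with limma-voom, and Tpsb2 0.76 with limma-voom and 0.54 with the covariate. The leave-outs gave -0.43 to 0.77 for Cpa3, -0.92 to 1.24 for Cma1 and -0.74 to 0.65 for Tpsb2. Scaling by library size only moved the median of all accessions to 0.28, 0.54 and 0.23 in the 3 comparisons.

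Hdc minus Cpa3 gave 1.99 to 3.76 over the leave-outs at PPE week 1 against saline and -3.93 to -2.26 at PPE week 2 against PPE week 1, where it passed without PPE week 2 replicate 4 (-3.93, exact permutation adjusted p = 0.0381). At PPE week 2 against saline the range was -1.13 to 0.69, where 0.69 is the value without saline replicate 2, and leaving out PPE week 2 replicate 1 gave 0.45.

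Over all accessions 1007, 338 and 841 were called in the 3 comparisons. DESeq2 called 1646, 798 and 1520, fits of only the 8 libraries 2026, 74 and 521, the covariate 82, 0 and 69, and the leave-outs 378 to 1396, 139 to 381 and 319 to 1213. Library size only called 1638 and the replicate block 204 at PPE week 2 against saline. Same-numbered libraries did not deviate together (correlations of -0.088 to 0.035), so the numbers do not pair animals. The replicate block gave Hdc 3.59, 0.76 and -2.83, and Hdc minus Cpa3 differences of 2.80, -0.27 and -3.07 with sign flips of 4 pairs, which allow no p below 0.125. The cause of these changes was not tested.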
